A study of Homo sapiens with 148 samples.

Results

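Long intergenic noncoding RNAs that carry a LINC number as their name were followed through the differentiation of H9 cells, an established human embryonic stem cell (hESC) line, towards pancreatic islet cells. The genes were chosen by their measured level: a name had to begin with LINC and digits and to reach 5 TPM (transcript abundance corrected for length and scaled to the same total in every sample) in at least 1 of 6 stages. Of 771 LINC names in the expression table, 103 met this rule, against 16426 of all 49085 gene names at the same level. The stages were hESCs, definitive endoderm (DE) at day 4, primitive gut tube-like cells (PGT) at day 7, pancreatic progenitors (PP) at day 14, a stage labelled PH whose meaning and day are not given in the sources used here, and organoids of β-cells made from the stem cells (SC-β) at day 35. All came from H9 cells, and the labels name no genetic change, so the groups differ by stage and by the medium and culture form that go with it. RNA-seq was made in 2 libraries per stage, 12 of the 148 samples of the series, and the deposited value is the authors' mean of the 2. No spread between replicates, no read count and no test can be given, and each comparison below is a description of these means.

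Long noncoding RNAs are transcribed and often spliced like messenger RNAs but are not known to be translated, and LINC is the name given to those that lie between protein-coding genes until a function earns them another. Some act in the nucleus on the gene next to them, some bind proteins or RNAs elsewhere, and some are the long precursors from which microRNAs are cut. As a class they are known for being present in fewer cell types than messenger RNAs. A few were later found to encode small proteins: RefSeq now lists 7 of the 103 as protein coding, among them LINC00493 (SMIM26), LINC00998 (SMIM30), LINC01420 (NBDY) and LINC00116 (MTLN), whose products are microproteins. RefSeq knew 32 of the 103 under another symbol, and all 103 names were matched there.

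The cells were checked by marker genes fixed in lists. The pluripotency factor POU5F1 stood at 1449 TPM in hESCs and 0.425 TPM in PH, the endoderm factor SOX17 at 96.1 TPM in DE, and the hormone genes INS and GCG at 298 and 2793 TPM in SC-β. PDX1, the defining factor of pancreatic progenitors, was low, with 3.17 TPM at the PP stage and 1.57 TPM in SC-β. The 5 genes of its list summed to 50.6 TPM in PP, 39.9 TPM in PH and 37.8 TPM in SC-β. The 6 endocrine genes summed to 305, 179 and 4139 TPM in the same stages. PH differed from the other differentiated stages in its markers: the summed level of 6 neuron genes was 1118 TPM there and between 72.5 and 130 TPM in the other stages, and the 4 gut tube genes used summed to 4.10 TPM. A few structural RNAs, RN7SK among them, took 31.8% of the TPM total in DE and 50.9% in PH, and since the total is fixed, the level of every other gene depends on this share.

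In the TPM as deposited, the LINC genes peaked in the stages at much the same shares as all names, and a larger share of them was bound to a single stage. A gene was counted as restricted when its highest stage was at least 4-fold above every other stage on TPM + 1. This held for 20 of the 103, or 19.4%, where 4.73% of all names at 5 TPM or more passed the same rule. Among protein-coding names the share was 4.05%, and among 422 long noncoding RNAs with other kinds of names it was 7.11%. At the other end, 47 of the 103 were broad, meaning 1 TPM or more in every stage and a peak under 4-fold above the lowest stage. This was 45.6% of them, beside 62.1% of all names. The index tau, which runs from 0 for an even level to 1 for a single stage, had a median of 0.357 over the LINC genes, 0.193 over all names, 0.166 over protein-coding names and 0.368 over the other long noncoding RNAs. By its median the LINC set lay beside the other long noncoding RNAs, and by its share of restricted genes above them.

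The share of restricted LINC genes was higher at higher peak levels. Of 43 that peaked between 5 and 10 TPM, 4 were restricted, or 9.30%, while of 17 that peaked above 50 TPM, 8 were, or 47.1%. In protein-coding genes the shares in the same bands were 5.53% and 4.69%, and in the other long noncoding RNAs 2.40% and 12.2%. With 1 TPM added, the 4-fold limit asks more of a gene with a low peak, and the bands were not recomputed with less added. All 6 stages reached 1 TPM for 59 of the 103, or 57.3%, beside 79.7% of all names, and a single stage did for 6 of the 103 and for 268 of the 16426 names. At the entry level itself, the 3 genes just inside the rule were LINC00526 at 5.00 TPM, LINC00649 at 5.08 TPM and LINC00862 at 5.08 TPM, and the 3 just outside were LINC00847 at 4.84 TPM, LINC00843 at 4.89 TPM and LINC01012 at 4.91 TPM, none of the 6 restricted.

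**Figure D1:**
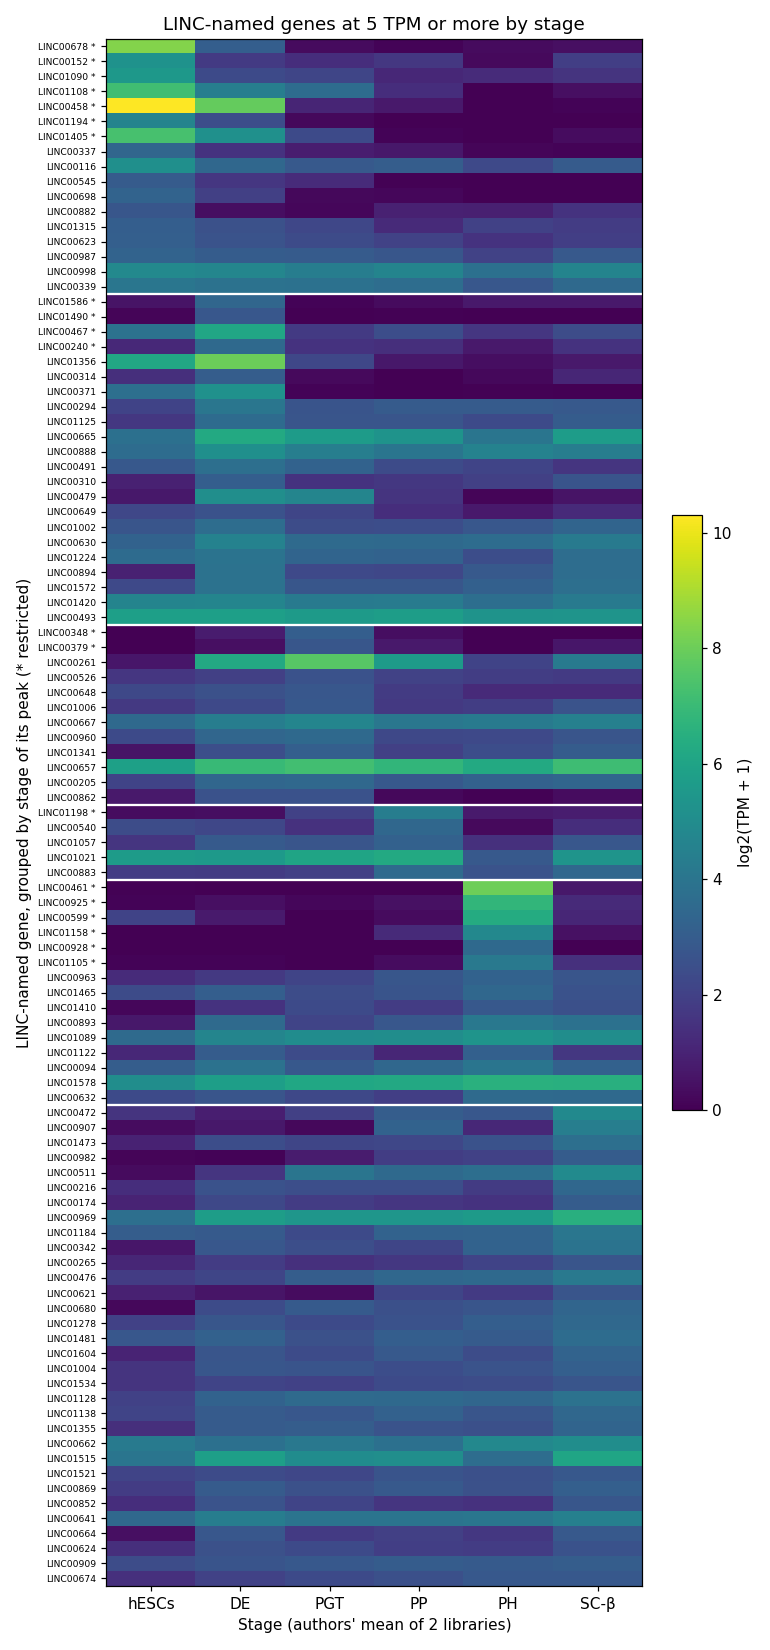
Heat map of the 103 LINC-named genes (rows) over the 6 stages (columns), coloured by log2(TPM + 1) of the authors' mean of 2 libraries. Rows are grouped by the stage of their peak and sorted by how far the peak stood above the next stage, with an asterisk on the 20 restricted genes; the blocks for hESCs and PH open with genes that are bright in a single column, and the block for SC-β has no asterisk.

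By stage, hESCs held the peak of 17 of the 103, DE of 22, PGT of 12, PP of 5, PH of 15 and SC-β of 32. These shares, from 4.85% in PP to 31.1% in SC-β, lay close to those of all names, which were 5.25% in PP and 31.7% in SC-β. They lay less close when the stages were rescaled, as given below. Restriction was uneven over the same stages. It was met by 7 of the 17 genes that peaked in hESCs and 6 of the 15 in PH, by 4 in DE, 2 in PGT and 1 in PP, and by 0 of the 32 in SC-β. Of all names peaking in hESCs, 5.52% were restricted, with 3.74% in DE, 3.15% in PGT and 2.09% in PP. The shares of all names were 8.64% in PH and 4.48% in SC-β.

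**Figure D2:**
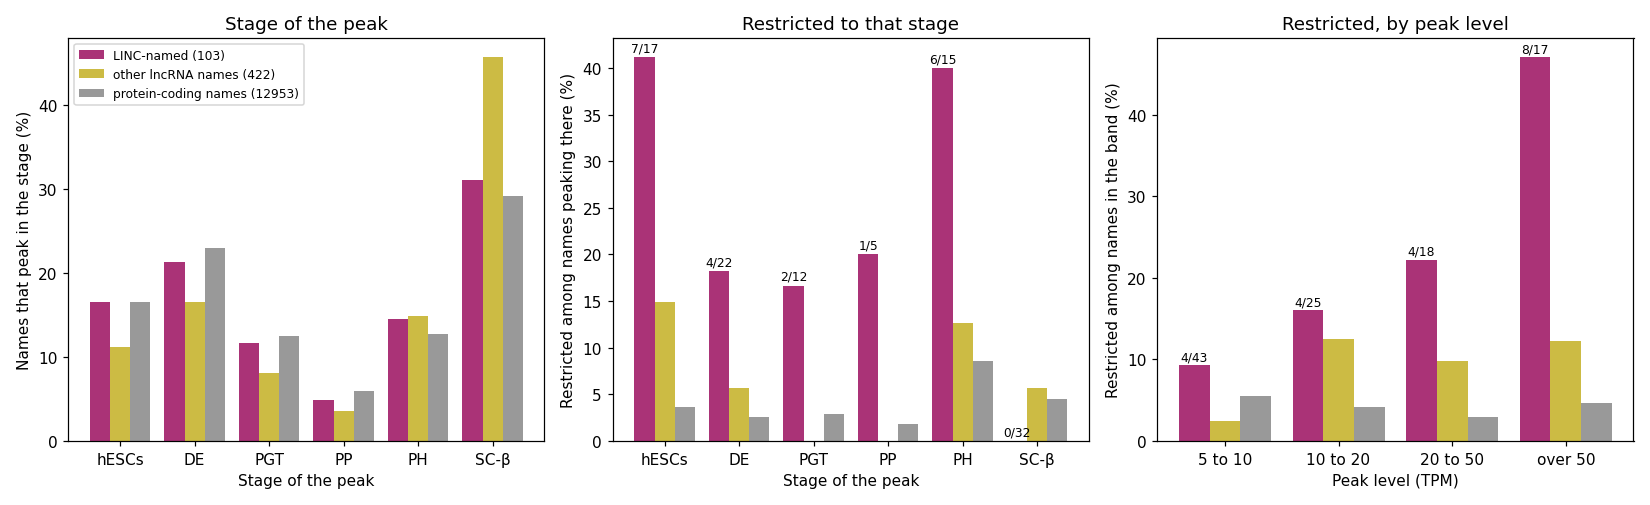
Bars give, for the LINC-named genes, other long noncoding RNA names and protein-coding names at 5 TPM or more, the percent that peak in each stage (left), the percent of these that are restricted to it (middle) and the percent restricted by peak level in TPM (right). Numbers above the LINC bars are restricted genes over genes in the bar; in the left panel the LINC and protein-coding bars lie close together, the other long noncoding RNAs stand higher in SC-β (45.7%), and the right panel shows a rise from 4 of 43 to 8 of 17 with the peak level.

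In the sum over all 103, the LINC genes gave 2715 TPM in hESCs, 1837 TPM in DE, 1175 TPM in PGT, 965 TPM in PP, 1279 TPM in PH and 1237 TPM in SC-β. A single gene, LINC00458, made up 46.8% of the sum in hESCs. The number of the 103 at 5 TPM or more went the other way, from 40 in hESCs to 63 in DE and 65 in SC-β. At 1 TPM or more, the number of the 103 was 77 in hESCs, 89 in DE and 83 in SC-β. At that level the whole table had 16784 names in hESCs, 21619 in DE and 24571 in SC-β. Both counts were thus lowest in hESCs, but the LINC count was highest in DE and that of all names in SC-β.

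Promoter sequences are shown for the gene that stood furthest above the next stage in each stage with a restricted gene in the RefSeq promoter table, and for LINC00261, which was added after its values were seen because of its place beside FOXA2. Each is 300 bases long and ends shortly after the RefSeq start (GRCh38.p14), read 5′ to 3′ along the gene. Capitals mark matches, on either strand, to short letter strings that are typical of known factors. The octamer of POU factors was searched as ATGCAAAT and the site of forkhead factors as TGTTTAC. For GATA factors the string was AGATAA. One kind of E box, bound by basic helix-loop-helix factors, was searched as CAGCTG. A further E box, bound by proneural factors among others, was searched with the letters CAGATG. The core of the TATA box, at which transcription of some genes is started, was searched as TATAAA. No match shown overlaps another. LINC00152 is shown for hESCs (chr2:87455177-87455476, plus strand), LINC01586 for DE (chr15:88605061-88605360, minus strand), LINC00379 for PGT (chr13:91211649-91211948, minus strand, a RefSeq start well outside the GENCODE gene of that name), LINC00461 for PH (chr5:88684776-88685075, minus strand) and LINC00261 last (chr20:22578593-22578892, minus strand).
LINC00152: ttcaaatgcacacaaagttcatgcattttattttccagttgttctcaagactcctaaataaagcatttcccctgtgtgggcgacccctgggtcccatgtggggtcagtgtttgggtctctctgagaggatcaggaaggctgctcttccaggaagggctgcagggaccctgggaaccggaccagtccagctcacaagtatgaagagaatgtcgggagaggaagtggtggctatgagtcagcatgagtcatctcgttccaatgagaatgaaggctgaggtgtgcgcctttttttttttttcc
LINC01586: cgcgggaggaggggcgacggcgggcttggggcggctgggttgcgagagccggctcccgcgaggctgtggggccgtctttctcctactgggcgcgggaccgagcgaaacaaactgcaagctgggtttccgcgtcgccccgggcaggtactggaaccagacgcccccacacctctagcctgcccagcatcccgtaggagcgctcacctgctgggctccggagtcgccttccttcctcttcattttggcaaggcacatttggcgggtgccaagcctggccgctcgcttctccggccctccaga
LINC00379: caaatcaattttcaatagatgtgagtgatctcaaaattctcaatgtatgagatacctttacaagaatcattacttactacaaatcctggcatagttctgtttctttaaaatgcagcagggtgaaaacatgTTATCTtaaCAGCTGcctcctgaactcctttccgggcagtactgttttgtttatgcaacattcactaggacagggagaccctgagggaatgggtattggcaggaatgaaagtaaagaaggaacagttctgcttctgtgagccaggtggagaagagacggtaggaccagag
LINC00461: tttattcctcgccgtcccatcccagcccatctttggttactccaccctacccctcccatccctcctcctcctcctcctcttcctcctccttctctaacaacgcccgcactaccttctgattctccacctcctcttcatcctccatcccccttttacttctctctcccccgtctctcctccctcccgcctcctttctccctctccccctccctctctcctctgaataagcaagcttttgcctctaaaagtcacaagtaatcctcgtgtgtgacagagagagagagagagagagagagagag
LINC00261: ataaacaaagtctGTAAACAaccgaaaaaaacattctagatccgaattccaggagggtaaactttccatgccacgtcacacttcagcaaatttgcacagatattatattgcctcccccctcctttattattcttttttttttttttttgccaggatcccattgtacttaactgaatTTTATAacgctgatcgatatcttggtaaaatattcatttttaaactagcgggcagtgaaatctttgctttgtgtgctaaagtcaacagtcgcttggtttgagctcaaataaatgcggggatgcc

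In these windows the forkhead and TATA letters were found for LINC00261 and the GATA letters and the first E box for LINC00379, with no match for the other 3. Of the 103, 76 had a promoter in the table. TGTTTAC was found in 7 of these, or 9.21%, and in 3.41% of all 27305 promoters. The octamer was in 2 of the 76 and in 1.80% of all promoters. The GATA letters were in 8 (10.5% of all promoters), the first E box in 14 (17.7%), the other E box in 15 (14.8%) and the TATA letters in 7 (12%). Of the 29 promoters of genes that peaked in hESCs or DE, 1 held TGTTTAC. The promoters also differed in base composition. The 10 promoters of restricted genes had a median of 49.2% G and C and 6 CG pairs, the 40 of broad genes 62.7% and 23.5, and 9996 promoters of protein-coding names at 5 TPM or more 65.3% and 26. These are counts of letters in fixed windows and were not tested.

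The genes restricted to hESCs held the highest levels of all. LINC00678 (chr11:27617626-27634627) stood at 336 TPM in hESCs, 7.37 TPM in DE and between 0.0777 and 0.344 TPM in the 4 later stages. Its log2 ratio of the peak to the next stage, on TPM + 1, was 5.33, the highest among LINC genes that peaked in hESCs. LINC01108 (chr6:14280127-14285454), described as an RNA of embryonic stem cells, went from 143 TPM in hESCs through 20.4 TPM in DE and 11.4 TPM in PGT to 1.53 TPM in PP, 0.0185 TPM in PH and 0.325 TPM in SC-β. LINC01090 (chr2:187712816-188384365) was at 44 TPM in hESCs and at 4.04 TPM or less elsewhere. It overlaps the protein-coding gene GULP1 on the other strand, which also peaked in hESCs, at 116 TPM, and how strand was used in counting is not given in the sources used here.

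LINC00152 (CYTOR, chr2:87454781-87636740), an RNA much studied in tumour cells, was at 37.3 TPM in hESCs and between 0.211 and 2.72 TPM elsewhere. It has a near-identical copy, MIR4435-2HG, which the table gave at 37.6 TPM in hESCs and between 0.268 and 5.74 TPM elsewhere. Reads of the pair can be assigned to either, so each value alone is uncertain. Both names fell together at the step to DE, to 2.38 and 2.58 TPM.

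The other restricted genes of hESCs, named here after their values were seen, kept a visible level in DE. LINC00458 (chr13:53950255-54270397), the most abundant LINC gene in the table, was at 1269.9 TPM in hESCs, 234 TPM in DE, 1.07 TPM in PGT and 0.642 TPM in PP, was listed at 0 in PH and was at 0.0615 TPM in SC-β. LINC01405 (chr12:110934590-110959093) stood at 157 TPM in hESCs and 35.4 TPM in DE, and LINC01194 (chr5:12574830-12804363) at 24.3 and 4.48 TPM. The same 2 early stages were shared more widely: in 6 of the 103 both hESCs and DE were at least 4-fold above every later stage. That was 5.83% of the LINC genes, beside 0.499% of all names. They were these 3, LINC00678, and LINC00371 and LINC01356, which both peaked in DE. LINC01356 was at 71.0 TPM in hESCs, 254 TPM in DE and 3.52 TPM in PGT, and then at or below 0.612 TPM. This grouping was made after the values were seen. Among the 5 pluripotency markers, DE cells still had POU5F1 at 417 TPM, DPPA4 at 126 TPM and LIN28A at 772 TPM. Their hESC values were 1449, 266 and 724 TPM, so only LIN28A was not lower. NANOG and SOX2 were down at 8.96 and 22.4 TPM, beside hESC values of 44.6 and 133 TPM.

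**Figure D3:**
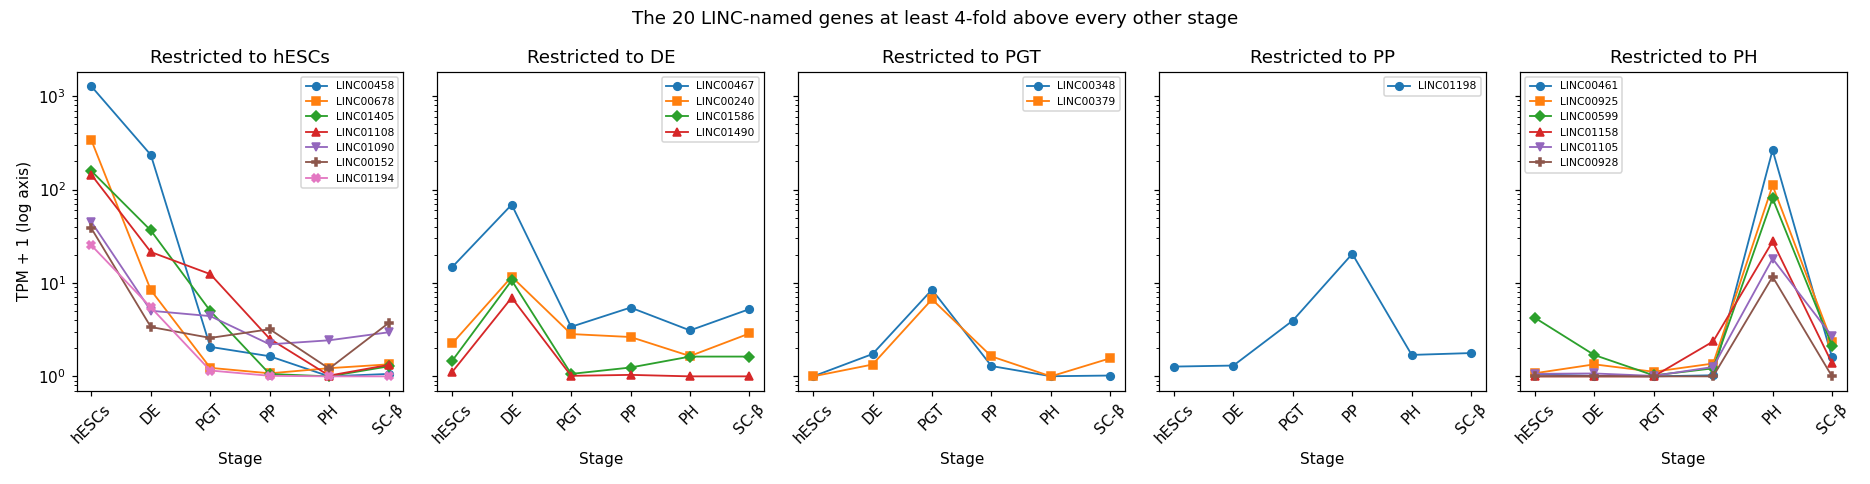
Levels of the 20 restricted LINC-named genes, 1 panel per stage of restriction, as TPM + 1 on a log axis over the 6 stages (authors' mean of 2 libraries; lines only join the points of a gene). The hESC genes fall stepwise through DE, whereas the PH genes rise from near 0 in a single column.

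Entry into definitive endoderm brought the broadest movement. From hESCs to DE, 43 of the 103 were at least 2-fold higher on TPM + 1 and 13 at least 2-fold lower, where 26% and 5.81% of all names at 5 TPM or more were. In percent the LINC genes had 41.7% higher and 12.6% lower. The median log2 ratio over the 103 was 0.73, and over all names it was 0.44, so much of this step was shared by the whole table. When every stage was divided by its typical ratio to the rest, a median over 13938 names, 29 of the 103 were higher and 13 lower, beside 14.6% and 11.5% of all names.

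The 4 genes restricted to DE were modest in level apart from LINC00467 (chr1:211382736-211435570), at 13.8 TPM in hESCs, 67.9 TPM in DE and between 2.11 and 4.45 TPM in the 4 later stages. LINC01586 (chr15:88585566-88605110) was at 9.65 TPM in DE and at or below 0.629 TPM elsewhere. LINC01490 (chr12:80763151-80770717) was at 5.96 TPM in DE, at or below 0.117 TPM in hESCs, PGT and PP, and listed at 0 in PH and SC-β. Its nearest protein-coding gene, the muscle regulator MYF5, was likewise listed at 0 outside DE, where it had 4.31 TPM. LINC00240 (chr6:26956932-27059749) was at 10.7 TPM in DE and at or below 1.88 TPM elsewhere, and its log2 ratio of 2.02 lay just above the limit of 2.

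LINC00261 (chr20:22547663-22578642), also called DEANR1 and known from definitive endoderm, rose by the most of all LINC genes at this step. It was at 0.546 TPM in hESCs, 72.9 TPM in DE, 198 TPM in PGT, 47.8 TPM in PP, 3.27 TPM in PH and 17.3 TPM in SC-β. It was present from DE onward, peaked in PGT and was not restricted, with a tau of 0.509. Its start lies 6813 bases from that of FOXA2, a forkhead factor that opens chromatin in endoderm. FOXA2 itself was at 1.88 TPM in hESCs, 39.6 TPM in DE, 48.7 TPM in PGT, 13.2 TPM in PP, 1.17 TPM in PH and 5.44 TPM in SC-β. Both were highest in PGT and next highest in DE, and Spearman's rho between them was 0.94 over the 6 stages.

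At the step from DE to PGT, 6 LINC genes were at least 2-fold higher and 20 lower, and 5.25% and 9.95% of all names were. The fall was led by the early genes: LINC00458 from 234 to 1.07 TPM, LINC01356 from 254 to 3.52 TPM and LINC00371 from 36.5 to 0.0798 TPM. LINC00479 did not join them. Its level was 33.0 TPM in DE, 24.6 TPM in PGT and 1.89 TPM or less in the 4 other stages. A pair of genes on chromosome 13 was restricted to PGT at low level. LINC00348 (chr13:71015042-71168417) was at 7.46 TPM there, 0.735 TPM in DE and listed at 0 in hESCs, and LINC00379 (chr13:91127613-91131407) was at 5.68 TPM there and at or below 0.636 TPM elsewhere. LINC00526 peaked in PGT at 5.00 TPM with a lowest stage of 2.13 TPM.

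From PGT to PP, 8 of the 103 were at least 2-fold higher and 15 lower, where 6.73% and 7.28% of all names were, and few LINC genes had their peak in PP. LINC01198 (chr13:46455131-46515958) was the restricted one, at 2.96 TPM in PGT, 19.5 TPM in PP and at or below 0.776 TPM in the other stages. LINC00540 (chr13:22040972-22276526) was at 9.87 TPM in PP, 4.34 TPM in hESCs and 0.194 TPM in PH. LINC01021 (PURPL, chr5:27217714-27497871), an RNA induced by p53, reached 76.1 TPM in PP and lay between 39.2 and 63.3 TPM in hESCs, DE, PGT and SC-β, with 6.34 TPM in PH. LINC01057 was between 1.73 and 8.14 TPM throughout.

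The PH column held the sharpest contrasts, and 3 of its 6 restricted genes are hosts of microRNAs that are known from the nervous system. LINC00461 (MIR9-2HG, chr5:88507546-88691057) was at 264 TPM in PH, at 0.607 TPM in SC-β, at or below 0.0482 TPM in hESCs, DE and PP, and listed at 0 in PGT. Its log2 ratio to the next stage of 7.36 was the highest of any name in the table at 5 TPM or more that peaked in PH. LINC00925 (MIR9-3HG, chr15:89361579-89424983) was at 109 TPM in PH, 1.32 TPM in SC-β and at or below 0.372 TPM elsewhere. LINC00599 (MIR124-1HG) was at 79.5 TPM in PH, 3.23 TPM in hESCs, 1.14 TPM in SC-β and at or below 0.693 TPM in the others. A related host outside the LINC names, MIR124-2HG, stood at 259.7 TPM in PH.

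LINC00461 and LINC00925 contain the hairpins of MIR9-2 and MIR9-3, and their mature products are printed because both loci give the same 2 RNAs. They are from RefSeq (GRCh38.p14), 5′ to 3′, with the seed (bases 2 to 8) in capitals. The MIR9-2 copies lie at chr5:88666902-88666924 (5p) and chr5:88666866-88666887 (3p) on the minus strand and the MIR9-3 copies at chr15:89368032-89368054 (5p) and chr15:89368071-89368092 (3p) on the plus strand.
hsa-miR-9-5p: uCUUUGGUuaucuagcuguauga
hsa-miR-9-3p: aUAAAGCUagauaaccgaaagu

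The 2 loci thus share both seeds, and microRNA miR-9 is known to restrain regulators of neural progenitors. RNA-seq of long RNA does not measure mature microRNAs, and the entries MIR9-2 and MIR9-3 in the table, at 2e-05 and 1.21 TPM in PH, are no measure of them. Of the 103 LINC genes, 9 hold an annotated microRNA on their own strand, and 5 of these 9 were restricted. The share among all names that hold a microRNA was not computed, so this count describes these 9 alone.

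The other restricted genes of PH were LINC01158 (PANTR1, chr2:104764932-104853183), LINC01105 (SILC1, chr2:5932543-6003510) and LINC00928 (chr15:89504909-89524049), the last 2 named after their values were seen. LINC01158 was at 26.8 TPM in PH, 1.36 TPM in PP, 0.383 TPM in SC-β and listed at 0 in hESCs, DE and PGT. It starts 104 bases from POU3F3, a POU factor of the developing brain, on the other strand. POU3F3 was at 30.4 TPM in PH, 0.855 TPM in PP, 0.805 TPM in SC-β and at or below 0.00573 TPM in the 3 early stages. LINC01105 was at 17.2 TPM in PH and 1.68 TPM in SC-β, and its nearest protein-coding gene, the neural factor SOX11, also peaked in PH, at 119 TPM. LINC00928 was at 10.7 TPM in PH and listed at 0 in the other 5 stages.

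These 6 genes were picked for their peak in PH, so a shared peak with other genes high in PH was fixed by that choice. Marker genes of nerve cells were high in the same column. All 6 neuron markers were highest in PH, among them STMN2 at 301 TPM and DCX at 169 TPM, and the 7 neural progenitor markers summed to 493 TPM there and to between 28.6 and 200 TPM elsewhere. The gut tube markers HNF4A and FOXA1 were at 0.292 and 1.96 TPM. Mesenchyme markers summed to 501 TPM in PH and to 1166 TPM in SC-β. In RNA from whole cultures, more cells of a type and more RNA per cell cannot be told apart, and the part of such cells in the LINC values was not tested. The step from PP to PH had 11 LINC genes at least 2-fold higher and 11 lower, where 9.37% and 14% of all names were. Without the PH column, 96 LINC genes met the 5 TPM rule and 14 of them were restricted, or 14.6%, beside 5.14% of the names that met it.

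**Figure D4:**
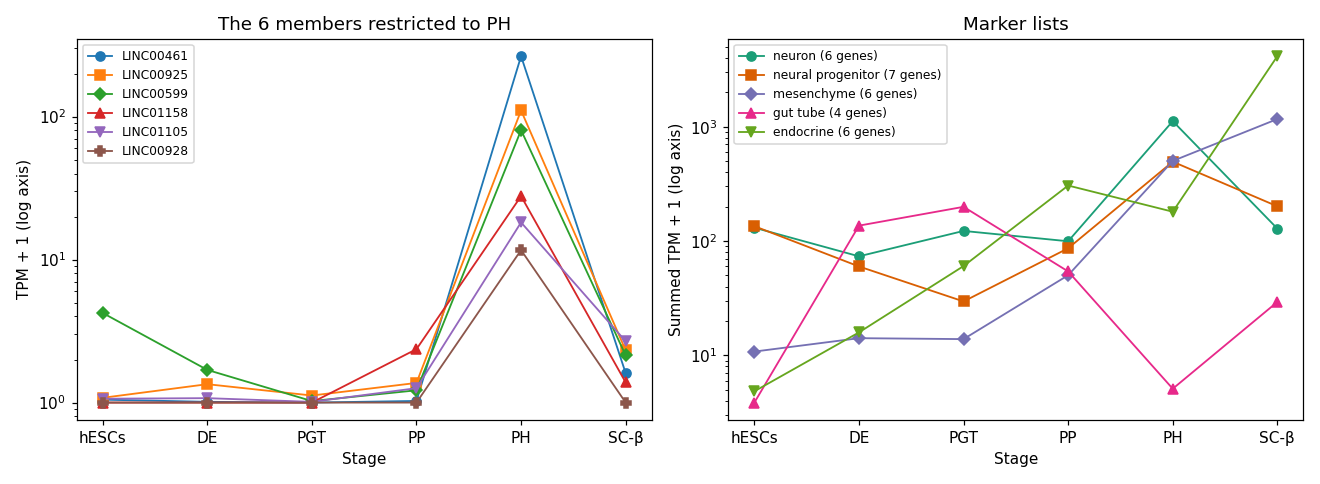
Left, the 6 LINC-named genes restricted to PH, as TPM + 1; right, summed TPM + 1 of 5 marker lists; both on log axes over the 6 stages (authors' mean of 2 libraries; lines only join points). The 6 genes were picked for their peak in PH, where the neuron sum is 1118 TPM and the gut tube sum 4.10 TPM.

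SC-β organoids held the most peaks and no restricted gene, and of all names peaking there 4.48% were restricted. Among the LINC genes at 10 TPM or more, DE held more peaks, 28.3% against 23.3%. The median log2 ratio of peak to next stage was 0.41 for the genes that peaked in SC-β. This was below the medians of hESCs, which had the highest, and of DE. It was above those of PGT (0.20), PP (0.28) and PH (0.33). By median tau, the LINC genes that peaked in SC-β were the lowest of all stages. LINC00472 (chr6:71187161-71420745), the host of MIR30A and MIR30C2, was at 29.0 TPM in SC-β, 7.23 TPM in PP, 5.94 TPM in PH and at or below 2.83 TPM in the early stages. Its log2 ratio of 1.87 was the highest among genes that peaked in SC-β and below the limit of 2. LINC00907 was at 20.3 TPM in SC-β, 8.39 TPM in PP and at or below 1.24 TPM elsewhere. LINC01473 was at 12.6 TPM in SC-β and between 0.969 and 5.04 TPM elsewhere. LINC00982 (PRDM16-DT) was at 7.11 TPM in SC-β and 2.96 TPM in PH.

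From PP to SC-β, 18 of the 103 were at least 2-fold higher and 3 lower, where 17% and 2.22% of all names were. The 3 that were lower were LINC01198, LINC00540 and LINC00261. This step depended on the scaling: with the stages rescaled in that way, 7 were higher and 6 lower, or 6.80% and 5.83%, beside 11.9% and 3.74% of all names. The peak in SC-β depended on it as well. After rescaling, 25 of the 103 peaked in SC-β and 23 in PH, and over all names 19% and 23.8% did. In hESCs 19.4% of the LINC genes then peaked, beside 26.8% of all names, and in DE 18.4%, beside 12.9%. No restricted gene changed its stage, and 17 of the 20 remained restricted.

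The LINC genes with the highest level in their lowest stage were next read in full. By this measure, LINC00657 (NORAD), which binds PUMILIO proteins in the cytoplasm, came first, between 57.4 TPM in hESCs and 147 TPM in PGT. LINC00493 (SMIM26) was between 37.8 TPM in PH and 55.7 TPM in DE, with the lowest tau of these 5 genes, 0.0452. LINC01578 (CHASERR), which lies beside the chromatin remodeller gene CHD2 and limits its expression, was between 32.6 TPM in hESCs and 93.1 TPM in PH. LINC00998 (SMIM30) was between 13.0 and 28.1 TPM and LINC00665 between 12.9 and 76.0 TPM, the only one of the 5 that was not broad. LINC01420 (NBDY), whose product takes part in mRNA decapping, was between 12.3 and 25.2 TPM. LINC00116 (MTLN), a mitochondrial microprotein gene, was at 34.4 TPM in hESCs and between 3.86 and 9.88 TPM elsewhere. Of these 4 microprotein genes, 3 were broad, where 62.1% of all names and 66.7% of protein-coding names were.

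LINC genes were also read beside the protein-coding gene whose start was nearest. In 75 pairs both genes reached 5 TPM, and in 23 of them, or 30.7%, both peaked in the same stage. For protein-coding genes and their own nearest coding neighbour the share was 25.4% of 9254 pairs, and the median Spearman's rho over the 6 stages was 0.26 in both sets. Within 5 kb, 8 of 16 LINC pairs shared the peak stage and the median rho was 0.80, where 25.9% of 2610 coding pairs did and the median was 0.31. Among them, LINC00337, LINC00476, LINC00909 and LINC01481 overlap ICMT, ERCC6L2, ZNF407 and CNOT2, and these pairs shared the peak stage. LINC00649, LINC00894 and LINC01006 overlap ATP5PO, EOLA2 and RNF32 and did not share it. Since the use of strand in counting is not given, values of overlapping pairs may not be independent, which was not tested. Restricted LINC genes lay further out, at a median of 135059 bases where all 75 pairs had 47431, and 4 of 15 shared the peak stage. The points of each rho are the same 6 stage means, so these values are descriptions.

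The highest rho, 1.00, was that of LINC00342 and ANKRD36C, whose starts lie 156828 bases apart and which both peaked in SC-β; the pair is named after its values were seen. Some pairs with nearly coincident starts came close to it and others did not. LINC00894 and EOLA2, 87 bases apart, had 0.20, and LINC01534 and ZNF567, 144 bases apart, had -0.14. Over the 16 pairs within 5 kb the median was 0.80. LINC01158 and POU3F3 had a rho of 0.94. LINC00982 starts 77 bases from PRDM16, a zinc-finger factor, which was at 0.0859 TPM in hESCs, 1.07 TPM in DE, 2.02 TPM in PGT, 3.97 TPM in PP, 5.61 TPM in PH and 7.62 TPM in SC-β, and the rho was 0.94. LINC01356 and SLC16A1, a lactate transporter gene 106950 bases away, also had 0.94, though SLC16A1 was still at 141 TPM in PGT where LINC01356 had 3.52 TPM. A short distance was no assurance of a shared course: LINC01473 starts 248 bases from ZC3H15, which lay between 45.8 and 65.5 TPM in every stage, with a rho of -0.37.

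**Figure D5:**
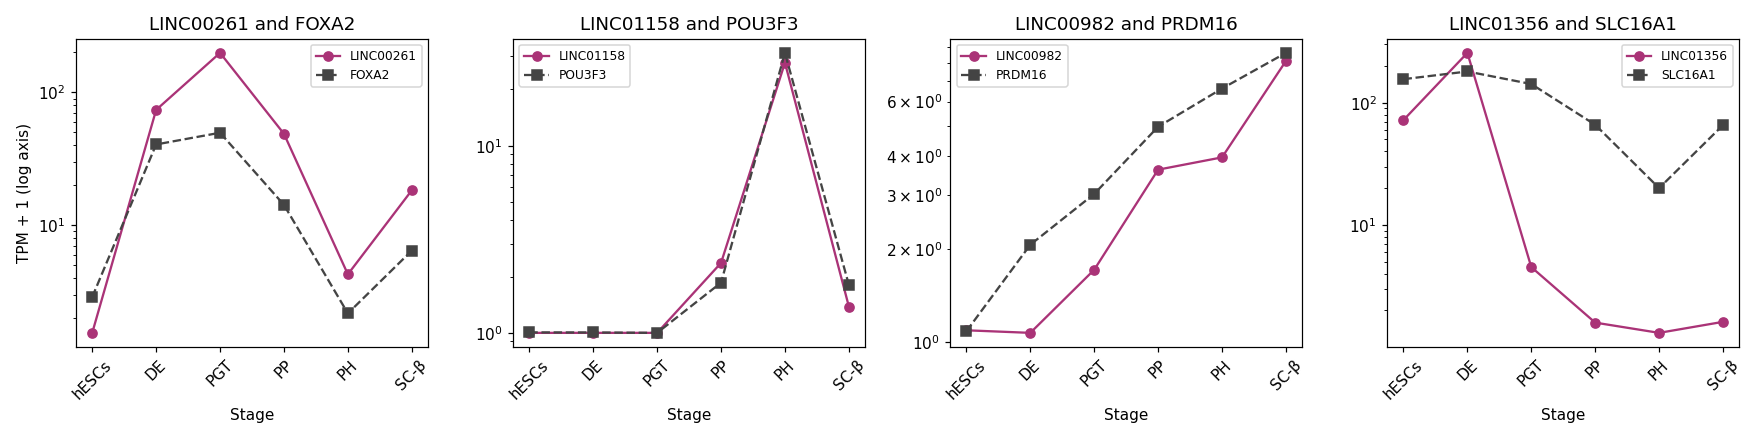
Levels of 4 LINC-named genes (circles) and the protein-coding gene with the nearest start (squares), as TPM + 1 on a log axis over the 6 stages (authors' mean of 2 libraries; lines only join points). Each pair has a Spearman's rho of 0.94, and both genes of each pair peak in the same stage. These pairs do not stand for the rest: over the 75 pairs at 5 TPM the median rho was 0.26 and 30.7% shared the peak stage.

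Among 25 other well-known long noncoding RNAs held as a list, all were in the table and 23 reached 5 TPM, of which 3 were restricted and 8 broad. The restricted ones sat in the same 2 stages as most restricted LINC genes. ESRG, a pluripotency-associated RNA, had 129 TPM in hESCs, against 3.13 TPM at the DE stage, and LINC-ROR had 22.5 and 1.63 TPM. MIAT, abundant in neurons, was at 162 TPM in PH and 6.74 TPM in SC-β. H19, the imprinted RNA of fetal tissue, was listed at 0 in hESCs and rose to 789.7 TPM at the PP stage and 987 TPM in SC-β, and MALAT1, a nuclear RNA of most cells, was between 282 TPM in hESCs and 1841 TPM in PGT.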

How the data were processed

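Total RNA from H9 cells and their derivatives was sequenced by the authors, aligned to hg38 with HISAT2 (version 2.2.0) and converted with StringTie (version 2.1.6) to TPM; the deposited table gives the authors' mean TPM of 2 replicates per stage. The annotation behind the table, and how strand was used, are not given in the sources used here, and methods and labels name different library kits (RiboMinus and TruSeq Stranded mRNA). Depth per sample is unknown from the table, so no interval, detection floor or test was computed.

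The table had 50451 entries under 49085 names; 231 repeated names were summed. Ratios were log2 of TPM + 1. Positions, nearest coding starts and overlaps came from GENCODE version 44 (GRCh38, the build of hg38), in which 99 of the 103 genes were found. Of these, 60 overlapped a gene on the opposite strand, 26 a gene on the same strand and 29 a protein-coding gene on either strand. Symbols, biotypes, promoters and microRNAs came from RefSeq (GRCh38.p14). Named were the 4 genes with the largest ratio of peak to next stage in each stage, the 5 with the highest lowest stage, the 3 on each side of 5 TPM, a list from prior knowledge and their neighbours; others named are marked or were chosen after their values were seen. The genes, lists and rules were chosen with earlier results of these data known. One gene of the marker lists is not reported here and was left out of its sum. Calculations were tested on simulated data. Python 3.11.15, numpy 2.4.6, pandas 2.3.3 and matplotlib 3.10.9 were used. The other samples of the series were not analysed here.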

Additional observations from a re-analysis of the deposited data

How the results depend on the processing

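No paired analysis was possible because the table holds the mean of the replicates, and for the same reason no replicate could be left out. The share of restricted genes (19.4%) became 34.0% when a 2-fold margin was enough and 7.84% when LINC names from 1 TPM entered; it stayed within 1.5 times under the other alternatives. With each stage rescaled by its median ratio, LINC00240, LINC00379 and LINC00467 fell below the 4-fold limit (log2 1.89, 1.97 and 1.76), and 22.3% of the genes peaked in PH. The median tau became 0.552 with names from 1 TPM, 0.219 with a pseudocount of 0.1 TPM and 0.580 on linear TPM.

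Steps moved most. With a 4-fold limit the shares higher and lower were 12.6% and 7.77% from hESCs to DE, 2.91% and 10.7% from DE to PGT, 1.94% and 6.80% from PGT to PP, 0% and 1.94% from PP to SC-β, and 6.80% and 4.85% from PP to PH. With a pseudocount of 0.1 TPM, 13.6% were higher from PGT to PP, 28.2% higher and 9.71% lower from PP to SC-β, and 20.4% lower from PP to PH. After median-ratio scaling 6.80% were higher and 5.83% lower from PP to SC-β, and without the 100 most abundant and the mitochondrial names 9.71% were lower there. With names from 1 TPM, 7.84% were lower from hESCs to DE and 8.21% from PGT to PP. The other 98 values lay within 1.5 times of those reported, and no restricted gene changed its stage, although 11 of the 103 genes peaked in another stage after median-ratio scaling. At the 4-fold limit the 1.94% that were lower from PP to SC-β were LINC01198 and LINC00540 alone. For median-ratio scaling, the shares of all names at this step are given above. Under the other alternatives, step shares were computed for the LINC genes alone, so whether those shifts are particular to them was not tested. The cause of all these shifts was not tested either. Ratios of genes under 1 TPM in a stage depend on the pseudocount by construction, and without counts their precision is unknown.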
